A study of Mus musculus with 80 samples.

Results

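Cdkn1a, Mdm2, Gadd45a, Gadd45b, Gadd45g, Ccng1, Phlda3 and Bbc3 are genes that cells switch on after DNA damage and other stress. They were taken by gene symbol from the deposited count tables, and all 8 were found in both tables, among 15919 genes of a comparison of cell sorts and 16000 genes of a comparison of cell preparations. The 80 libraries came from brains of 22 adult mice of both sexes that carried Cx3cr1(Jung)-cre/Ert2+;NuTRAP+. In these mice tamoxifen activates Cre under the control of Cx3cr1, and recombined cells then carry an eGFP tag on their ribosomes. Cx3cr1 is expressed by microglia, the resident macrophages of the brain, and also by macrophages at its borders. Every mouse, including those that gave the Tissue libraries, had intraperitoneal tamoxifen at 100 mg per kg body weight from about 3 months of age, and no untreated or Cre-negative brain was part of the tables.

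Each preparation gave an Input library, the RNA of the whole lysate, and a TRAP library (translating ribosome affinity purification), the RNA pulled down with the tagged ribosomes. In the sort comparison (48 libraries, 14 mice) Tissue was homogenised directly, Cell was a suspension made by enzymatic and mechanical dissociation at 37 °C, and the suspension was sorted with CD11b magnetic beads (autoMACS), with beads followed by a cartridge-based sorter (autoMACS to Tyto), on the cartridge sorter alone (Tyto) or on a flow cytometer (FACSAria). Groups had 4 libraries each, apart from autoMACS to Tyto with 3 and Tyto with 5. In the cell preparation comparison (32 libraries, 12 mice, 4 per group) Tissue was set beside a purely mechanical dissociation at 4 °C followed by a Percoll gradient (Dounce) and beside the 37 °C dissociation without and with actinomycin D, triptolide and anisomycin, blockers of transcription and translation that were present only during the warm step: Cell (-) Inhibitors and Cell (+) Inhibitors. The study text describes a whole brain, and the lowest RNA integrity, for Dounce, and 1 hemisphere per preparation for the other groups. The Tissue libraries of both comparisons came from the same 4 mice, while the 3 suspensions of the cell preparation comparison came from other mice, so that mouse cohort and preparation cannot be told apart there.

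p53 is a transcription factor that is kept scarce by the ubiquitin ligase Mdm2 and accumulates when DNA is damaged. Its targets stop the cell cycle (Cdkn1a, an inhibitor of cyclin-dependent kinases, and Ccng1, cyclin G1), start apoptosis (Bbc3, also called PUMA), restrain Akt signalling (Phlda3) and limit p53 itself (Mdm2). The Gadd45 proteins bind PCNA, Cdk1 and the kinase Map3k4. Gadd45a is a p53 target, whereas Gadd45b and Gadd45g are known as immediate-early genes that follow inflammatory signals, growth factors and neuronal activity. Short-lived mRNAs of this kind can be made while tissue is being taken apart, which is why they are read in studies of cell isolation.

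In mm10, the build of the authors' files, the genes lie on 7 chromosomes: Cdkn1a at chr17:29090986-29100722 (plus strand), Mdm2 at chr10:117688905-117710716 (minus), Gadd45a at chr6:67035096-67037407 (minus), Gadd45b at chr10:80930091-80932204 (plus), Gadd45g at chr13:51846675-51848474 (plus), Ccng1 at chr11:40748552-40755286 (minus), Phlda3 at chr1:135766085-135769134 (plus) and Bbc3 at chr7:16309583-16318334 (plus). RefSeq start regions on GRCm38.p6, the assembly behind mm10, were at hand for all 8 genes, as 11 windows of 300 bases that run from 250 bases before to 50 bases after a listed transcript start. A p53 response element consists of 2 repeats of 10 bases with C as the fourth and G as the seventh base. An element without a spacer and with at most 3 mismatches was present in 3 of the 11 windows and in 453 of 32841 windows of all genes (1.38%), and with at most 1 mismatch in 22 of all windows (0.067%). The 3 windows, of Cdkn1a, Ccng1 and Bbc3, are shown because they met the limit of 3 mismatches. Other listed starts of Cdkn1a (7 mismatches) and Bbc3 (7 and 8) did not meet it. Nor, without a spacer, did any window of the other members, p53 targets among them. With up to 13 bases allowed between the 2 repeats, the best match had 2 mismatches in Gadd45a and 3 in Gadd45b and in a second window of Bbc3. The share of all windows within 3 mismatches was not counted for that looser search. In the textbook account p53 regulates all 3 genes shown, while their levels, given further on, took different courses. The capitals mark the element, a match of letters and no measured binding site, and each window reads 5′ to 3′ on the strand of its gene.
Cdkn1a, chr17:29090729-29091028, plus strand, 1 mismatch, element beginning 51 bases before the listed start: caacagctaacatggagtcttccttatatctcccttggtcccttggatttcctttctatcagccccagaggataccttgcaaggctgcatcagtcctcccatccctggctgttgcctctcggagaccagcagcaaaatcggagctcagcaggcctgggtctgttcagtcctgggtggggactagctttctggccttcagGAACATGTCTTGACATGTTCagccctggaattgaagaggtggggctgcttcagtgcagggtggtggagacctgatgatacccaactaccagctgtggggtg
Ccng1, chr11:40755237-40755536, minus strand, 1 mismatch, element beginning 195 bases before the listed start: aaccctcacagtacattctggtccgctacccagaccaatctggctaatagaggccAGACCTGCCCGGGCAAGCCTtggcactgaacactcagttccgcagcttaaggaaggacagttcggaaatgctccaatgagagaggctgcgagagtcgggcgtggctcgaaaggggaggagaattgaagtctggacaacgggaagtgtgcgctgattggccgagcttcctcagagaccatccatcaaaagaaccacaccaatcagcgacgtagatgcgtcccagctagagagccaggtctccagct
Bbc3, chr7:16309333-16309632, plus strand, 3 mismatches, element beginning 97 bases before the listed start: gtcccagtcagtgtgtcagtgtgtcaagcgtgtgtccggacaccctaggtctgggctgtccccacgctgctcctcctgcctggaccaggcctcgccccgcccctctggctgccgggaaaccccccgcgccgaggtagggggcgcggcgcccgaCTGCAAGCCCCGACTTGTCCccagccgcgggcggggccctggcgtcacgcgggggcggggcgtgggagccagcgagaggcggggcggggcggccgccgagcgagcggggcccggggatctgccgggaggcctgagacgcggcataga

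Library totals were 7129464 to 20168116 counts in the sort comparison and 2471448 to 14650287 in the cell preparation comparison, with the 4 Dounce-TRAP libraries the shallowest of all (2471448 to 4724538). Levels are given in CPM (counts scaled to a common library total) after TMM scaling, a factor that sets the bulk of genes level between libraries of 1 fraction, so CPM of Input and TRAP libraries were scaled apart. The label check was the summed CPM of 5 microglial markers (Tmem119, P2ry12, Cx3cr1, Csf1r, Siglech). It was 123 to 200 in Tissue-Input, 2908 to 3940 in Cell-Input, 9476 to 24103 in sorted Input, 2666 to 3116 in Tissue-TRAP, 19442 to 20817 in Cell-TRAP and 21503 to 27709 in sorted TRAP of the sort comparison, and all 5 were above 0 in every library. Markers of border-associated macrophages (4 genes) summed to 4.92 to 9.58 CPM in Tissue-Input, 102 to 121 in Tissue-TRAP and 619 to 1686 CPM in Cell-TRAP. One Input library stood apart: autoMACS-Input replicate 3 had the lowest total of the sort comparison and the lowest microglial sum of the sorted Input (9476, against 19593 to 24103 elsewhere), and its member values are given wherever they decide a result. In bulk RNA, fewer cells of a type and less RNA per cell cannot be told apart.

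**Figure D1:**
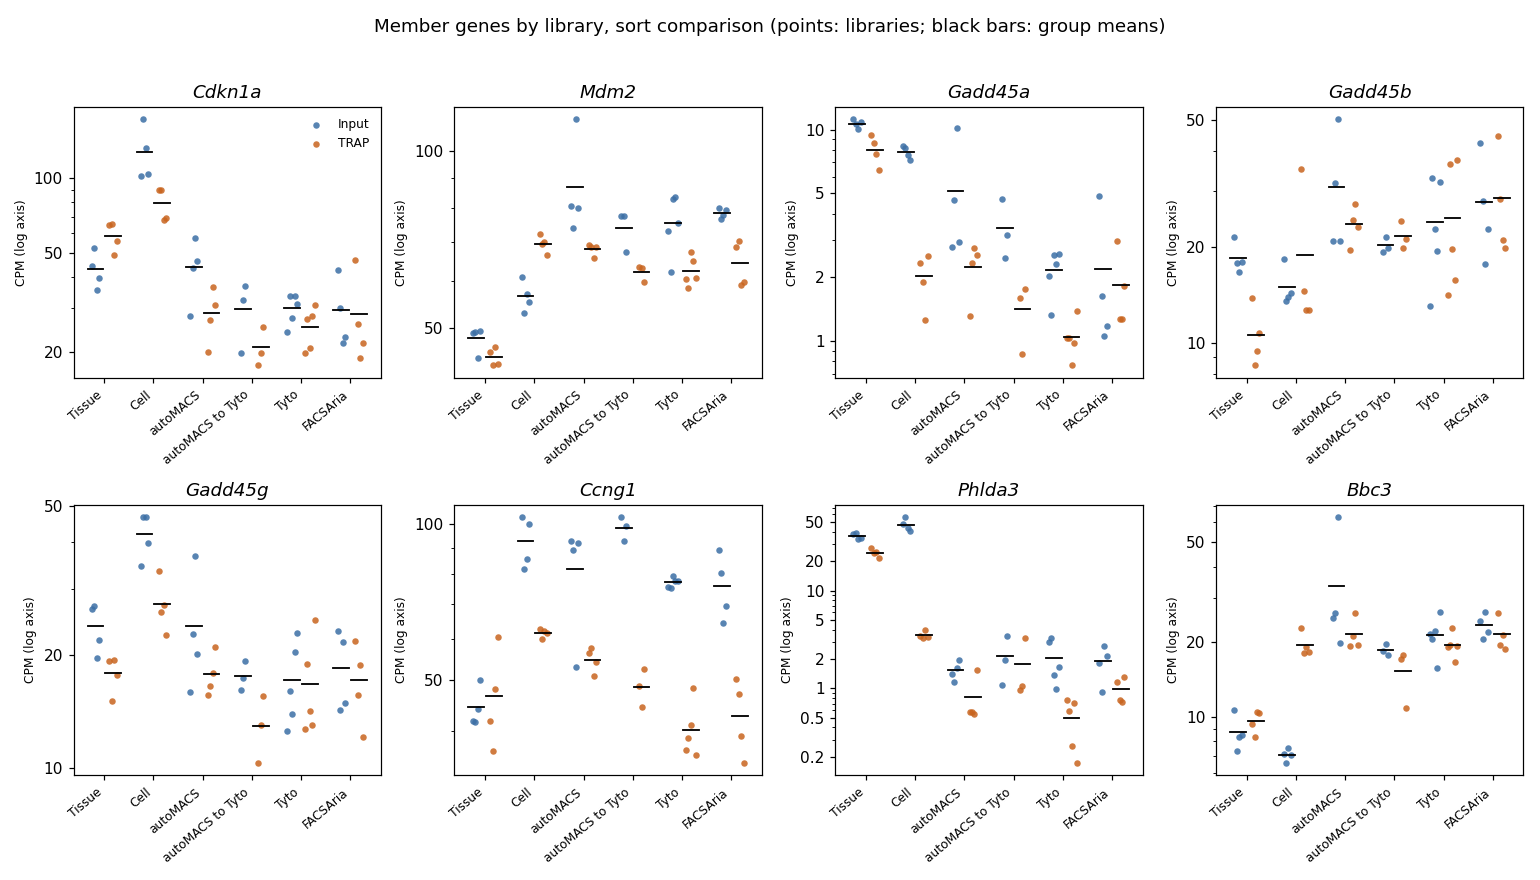
Level of each member gene in the 48 libraries of the sort comparison, in CPM on a log axis, with Input in blue, TRAP in orange, 1 point per library and a black bar at the group mean. Cdkn1a stood highest in Cell-Input (102 to 173 CPM) and Phlda3 dropped from 40.3 to 56.5 CPM in Cell-Input to at most 3.44 CPM in every sorted library.

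In intact tissue the members spanned a wide range of levels. Per kilobase of exon in Tissue-Input of the sort comparison, the mean level was highest for Phlda3 (23.3 CPM per kb) and Gadd45g (20.2), followed by Ccng1 (12.6), Cdkn1a (12.1), Gadd45b (11.6) and Mdm2 (9.45), and lowest for Gadd45a (6.08) and Bbc3 (4.11). In Tissue-TRAP of the same mice Cdkn1a came first on this scale (16.6 CPM per kb), ahead of Phlda3 (15.7), Gadd45g (15.3) and Ccng1 (13.3). The order of these means was not tested, and exon length was the union over all annotated transcripts of a gene. No member was called between TRAP and Input of intact tissue, where a call needs a fold change above 2 and an FDR under 0.1 in edgeR's quasi-likelihood test over all genes. That was so in the sort comparison (0 of 8 members, with 11.1% of all genes called, 2 members at an unadjusted p under 0.05, and 0 by DESeq2 and by limma) and in the cell preparation comparison (0 of 8, 10.5% of all genes, 1 at an unadjusted p under 0.05, 0 by DESeq2 and by limma). In the sort comparison neuronal markers summed to 4468 to 5233 CPM in Tissue-TRAP and 5369 to 5699 CPM in Tissue-Input. Astrocyte markers summed to 3195 to 4924 and 3239 to 3489 CPM. With markers of other cells this high in Tissue-TRAP, the lack of calls cannot show that members are alike in tagged and other cells.

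The first question of the design is what making a cell suspension does before any sort. In Input, Cdkn1a and Ccng1 were higher in Cell than in Tissue. Cdkn1a was at 102, 173, 132 and 104 CPM in the 4 Cell-Input libraries and at 44.3, 52.2, 35.5 and 39.6 CPM in Tissue-Input of the same mice. The groups did not overlap, and Cdkn1a rose by 1.57 on the log2 scale (SE 0.23, 2.98-fold, edgeR adjusted p = 2.22e-06). Ccng1 was at 103, 81.9, 85.7 and 99.7 CPM in Cell-Input against 41.7, 41.6, 44.1 and 50 CPM in Tissue-Input, again without overlap (log2 1.06, SE 0.13, edgeR adjusted p = 2.47e-07). Its fold of 2.09 sits at the threshold, and the call was lost in 6 of 7 alternative fits, among them the one with the mouse as a block, in which it was 0.92 (edgeR adjusted p = 1.35e-05). The other 6 members were not called in Input, with 46% of all genes called. Among them Gadd45g had a mean level of 41.9 ± 5.82 CPM (SD, n = 4) in the suspension and 23.8 ± 3.56 in Tissue-Input, and Gadd45b at 15.0 ± 2.23 and 18.5 ± 2.12. Endothelial markers (6 genes) summed to 764 to 1469 CPM in Cell-Input and 42.6 to 54 in Tissue-Input, and those of pericytes and smooth muscle to 391 to 558 and 102 to 110. Neuronal markers moved the other way (405 to 979 against 5369 to 5699 CPM), and the part of these shifts in cell content in the Cdkn1a and Ccng1 values was not tested.

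TRAP, the RNA pulled down with the tagged ribosomes, gave another set of members. Phlda3 was at 3.42, 3.26, 3.96 and 3.38 CPM in Cell-TRAP against 27.2, 24.4, 24.6 and 21.5 in Tissue-TRAP. It was low in every Cell library and fell by 2.79 on the log2 scale (SE 0.31, 6.94-fold, edgeR adjusted p = 1.3e-08). Gadd45a fell by 2.00 (SE 0.30, edgeR adjusted p = 1.44e-06), from 6.42 to 9.46 CPM in Tissue-TRAP to 1.26 to 2.53 CPM in Cell-TRAP. Bbc3, which encodes a BH3-only inducer of apoptosis, was at 22.8, 18, 19 and 18.3 CPM in Cell-TRAP and 9.4, 8.32, 10.5 and 10.4 CPM in Tissue-TRAP. It was higher in all 4 Cell libraries (log2 1.01, SE 0.15, edgeR adjusted p = 1.09e-06), at a fold of 2.02. The log2 value was 0.95 with the mouse as a block (edgeR adjusted p = 0.000135), and it missed the 2-fold threshold in 6 of 7 alternative fits, that one included, and without Cell-TRAP replicate 1 (0.90) or Tissue-TRAP replicate 2 (0.95). In this comparison 54.3% of all genes were called. Cdkn1a was not called in TRAP. It was at 89.8, 89.6, 68.1 and 69.2 CPM in Cell-TRAP and 64.9, 65.7, 49 and 55.7 CPM in Tissue-TRAP, ranges that do not overlap after TMM scaling, but its direction turned with limma on the authors' log2 values, and DESeq2 size factors moved the median of all genes in this contrast by -0.33. Gadd45b was at 35.1 CPM in Cell-TRAP replicate 1 and at 14.5, 12.7 and 12.7 CPM in the other 3 libraries, with 8.5 to 13.8 CPM in Tissue-TRAP. Astrocyte markers summed to 1544 to 1732 CPM in Cell-TRAP and 3195 to 4924 in Tissue-TRAP, neuronal markers to 97.1 to 287 and 4468 to 5233, and microglial markers to the values given above. The neuronal and astrocyte sums were lower together with Phlda3 and Gadd45a, and their part in these values was not tested.

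Whether the change on dissociation differed between the fractions was tested as an interaction. Cell and Tissue of the sort comparison came from the same 4 mice, and the test treated their libraries as independent. No interaction was fitted with the mouse as a block. In the sort comparison 5 members passed, with 35.3% of all genes called. The change was lower in TRAP than in Input for Cdkn1a (by -1.06 on the log2 scale, SE 0.33, edgeR adjusted p = 0.00616), Gadd45a (-1.46, SE 0.49, edgeR adjusted p = 0.0101) and Phlda3 (-3.08, SE 0.40, edgeR adjusted p = 2.42e-08). It was higher in TRAP for Gadd45b (1.2, SE 0.47, edgeR adjusted p = 0.0265) and Bbc3 (1.40, SE 0.31, edgeR adjusted p = 0.000227). The median of all genes was -0.289, so Cdkn1a, Gadd45a and Phlda3 lay below and Gadd45b and Bbc3 above the bulk of the table. The Gadd45b difference was not called in 4 of 5 alternative fits (lowest 0.71) and rested on few libraries. It was 0.80 without Cell replicate 1 (edgeR adjusted p = 0.142), 0.93 without Tissue replicate 2 and 0.99 without Tissue replicate 3, none of them called, and Cdkn1a was at -0.96 and not called without Cell replicate 2.

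The cell preparation comparison repeated the dissociation step in other mice. In Input no member was called between Cell (-) Inhibitors and Tissue, with 44.7% of all genes called (edgeR: 4 members at an unadjusted p under 0.05, 0 called by DESeq2 and by limma). Cdkn1a was again higher in every suspension library, at 116, 110, 90.7 and 106 CPM against 59.8, 75.2, 52.8 and 70.8 CPM in Tissue-Input. The groups did not overlap, but the difference of 0.71 on the log2 scale (SE 0.13) stayed under the 2-fold threshold. Ccng1 stood at 96.2 ± 7.46 CPM (SD, n = 4) and 53.4 ± 1.57, and Gadd45g at 60 ± 7.78 and 34.2 ± 4.43, also without overlap. In TRAP 3 members were called, with 53.2% of all genes called. Phlda3 fell by 2.81 on the log2 scale (SE 0.56, edgeR adjusted p = 0.000206), from 35.7, 34.8, 33.3 and 19.2 CPM in Tissue-TRAP to 6.73, 3.96, 2.51 and 4.2 CPM. Gadd45a fell by 1.28 (SE 0.47, edgeR adjusted p = 0.02), from 6.98 ± 0.791 to 2.86 ± 0.454 CPM, a call lost with limma (-1.26, limma adjusted p = 0.194). Gadd45b rose by 1.34 (SE 0.38, edgeR adjusted p = 0.00376), from 17.3, 15.3, 13.8 and 10.7 CPM to 25.5, 18.6, 27.3 and 73.5 CPM, and was higher in all 4 suspensions. Without the library at 73.5 CPM, replicate 4, the Gadd45b value was 0.74 (edgeR adjusted p = 0.049) and no longer above 2-fold. Bbc3, at 0.98, was called with limma (1.09), in the fit of only these 2 groups (1.07), and without Tissue-TRAP replicate 1 (1.2) or Cell (-) Inhibitors-TRAP replicate 3 (1.01). Neuronal markers summed to 67.9 to 156 CPM in Cell (-) Inhibitors-TRAP and 5348 to 6534 in Tissue-TRAP. The part of cell content in the member values was not tested.

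The interaction in the cell preparation comparison called 5 members, with 38.6% of all genes called and a median over all genes of -0.608. Phlda3 (-3.19, SE 0.50, edgeR adjusted p = 3.48e-06) and Gadd45a (-1.27, SE 0.45, edgeR adjusted p = 0.0177) had a lower change in TRAP than in Input, as in the sort comparison, which used the same Tissue mice. Gadd45g (-1.13, SE 0.33, edgeR adjusted p = 0.00441) and Ccng1 (-1.06, SE 0.23, edgeR adjusted p = 0.000336) were called in the same direction, but in the fits that rescale the table they lay between -0.97 and -0.88 and were not called, and Ccng1 was also at -0.88 and not called without Tissue replicate 4. Gadd45b was called in the opposite direction (1.29, SE 0.46, edgeR adjusted p = 0.0182), and at 0.86 it was not called without Cell (-) Inhibitors replicate 4 (edgeR adjusted p = 0.071). With limma Gadd45a was not called (-1.12, limma adjusted p = 0.305). Bbc3, at 0.98, was called in 4 of 5 alternative fits (1.12 to 1.23) and without Tissue replicate 1 (1.26) or Cell (-) Inhibitors replicate 3 (1.12), and Cdkn1a, at -0.97, without Tissue replicate 4 (-1.07) or Cell (-) Inhibitors replicate 4 (-1.2).

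**Figure D2:**
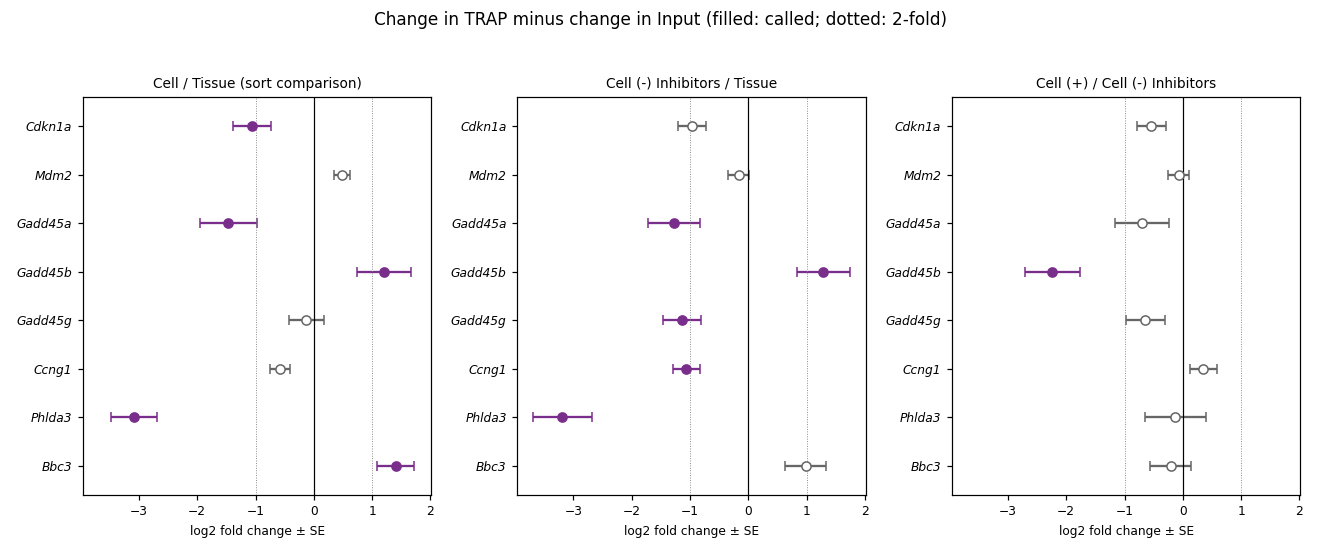
Change in TRAP minus change in Input on the log2 scale for each member, with SE bars, for Cell against Tissue in the sort comparison, for Cell (-) Inhibitors against Tissue and for Cell (+) against Cell (-) Inhibitors. Filled points passed the call (fold above 2, FDR under 0.1) and dotted lines mark a 2-fold difference. Phlda3 lies at -3.08 and -3.19 in the first 2 panels, and Gadd45b is the single filled point of the third (-2.24).

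The next question is what a sort adds to the suspension. Over the 4 sorts with equal weight, 5 members were called against Cell-Input, with 51.8% of all genes called. The 16 sorted Input libraries are not all from separate mice, since autoMACS and autoMACS to Tyto shared 3 mice and Tyto and FACSAria shared 3. The SEs here, in TRAP and in the test among the 4 sorts treat them as independent. Phlda3 fell by 4.65 on the log2 scale (SE 0.19, 25.1-fold, edgeR adjusted p = 1.59e-16), from 47.6, 56.5, 43.4 and 40.3 CPM in Cell-Input to between 0.922 and 3.44 CPM in the 16 sorted Input libraries. Cdkn1a fell by 1.97 (SE 0.16, 3.92-fold, edgeR adjusted p = 8.63e-11), to between 19.8 and 57.6 CPM, and the sorted libraries did not reach the lowest Cell-Input library. Gadd45a fell by 1.39 (SE 0.28, edgeR adjusted p = 9.9e-05) and Gadd45g by 1.14 (SE 0.16, edgeR adjusted p = 7.67e-07), both with ranges that overlap those of Cell-Input. The overlap came from autoMACS-Input replicate 3, which held 10.2 CPM of Gadd45a against 1.06 to 4.88 CPM in the other sorted Input, and 36.7 CPM of Gadd45g. Bbc3 rose by 1.73 (SE 0.22, 3.32-fold, edgeR adjusted p = 1.28e-07), from 7.14, 6.56, 7.55 and 7.05 CPM to between 15.7 and 63.1 CPM, and every sorted library was above every Cell-Input library. The value of 63.1 CPM belongs to autoMACS-Input replicate 3, and the highest of the others was 26.4 CPM. The summed astrocyte, oligodendrocyte and blood markers were also lower in these libraries, at 148 to 396, 210 to 795 and 22.6 to 825 CPM in sorted Input against 7167 to 9612, 10235 to 15274 and 2122 to 3228 CPM in Cell-Input. Microglial markers were higher, at 9476 to 24103 CPM in sorted Input against 2908 to 3940 CPM in Cell-Input. Bbc3 had a mean of 19.5 CPM in TRAP of the unsorted suspension. The part of cell content in the Phlda3, Cdkn1a, Gadd45a, Gadd45g and Bbc3 values was not tested.

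Against Cell-Input, autoMACS called Cdkn1a (-1.55, SE 0.23), Phlda3 (-4.98, SE 0.32), Bbc3 (2.23, SE 0.25) and Gadd45b (1.04, SE 0.28), with 51.6% of all genes called. The Gadd45b call was lost in 4 alternative fits, without Cell-Input replicate 2 (0.99) and without autoMACS-Input replicate 3 (0.72). The latter held 50.2 CPM of Gadd45b, against 20.8 to 31.7 CPM in the rest of its group. Gadd45g, at -0.82, was called in 4 alternative fits (-1.18 to -1.0) and without autoMACS-Input replicate 3 (-1.10), and Gadd45a, at -0.63, with limma (-1.13) and without that library (-1.16). For autoMACS to Tyto the calls were Cdkn1a (-2.11, SE 0.27), Gadd45a (-1.19, SE 0.43), Gadd45g (-1.26, SE 0.25), Phlda3 (-4.48, SE 0.35) and Bbc3 (1.39, SE 0.27), with 50.6% of all genes called, and Gadd45a was not called without autoMACS to Tyto-Input replicate 2 (-0.99). The same 5 members were called for Tyto (51.8% of all genes), from Bbc3 at 1.59 (SE 0.24) to Phlda3 at -4.52 (SE 0.28), and for FACSAria (51.1%), from Bbc3 at 1.72 (SE 0.25) to Phlda3 at -4.62 (SE 0.31). In FACSAria-Input the Gadd45a value moved from -1.88 to -2.60 without replicate 1, which held 4.88 CPM against 1.06 to 1.64 in the other 3. These contrasts share their Cell-Input libraries.

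Sorting was read in TRAP against Cell-TRAP, where 2 of 8 members were called over the 4 sorts, a share near the 24.4% of all genes called. Cdkn1a fell by 1.64 on the log2 scale (SE 0.16, 3.11-fold, edgeR adjusted p = 1.86e-09), from between 68.1 and 89.8 CPM in Cell-TRAP to between 17.6 and 46.7 CPM, with no overlap. Phlda3 fell by 1.94 (SE 0.26, edgeR adjusted p = 8e-07), from between 3.26 and 3.96 CPM to between 0.173 and 3.26 CPM, the upper end being autoMACS to Tyto-TRAP replicate 3. Markers of other cells were lower in the same libraries: endothelial markers summed to 638 to 684 CPM in Cell-TRAP and 68.4 to 139 CPM in sorted TRAP, astrocyte markers to 1544 to 1732 and 124 to 220 CPM, and those of pericytes and smooth muscle to 89.1 to 115 and 1.59 to 14.3 CPM. Their part in the Cdkn1a and Phlda3 values was not tested. Bbc3, already at 19.5 ± 2.23 CPM (SD, n = 4) in Cell-TRAP, stood at 15.3 ± 3.81 to 21.5 ± 3.21 CPM in the sorted groups. Cdkn1a and Phlda3 were called in each of autoMACS (23.6% of all genes called, -1.47 and -2.08), Tyto (23.9%, -1.65 and -2.80) and FACSAria (23.4%, -1.49 and -1.82). In autoMACS to Tyto (22.6%) they were at -1.93 and -1.06, and Gadd45g was called too (-1.08, SE 0.22). Both of the last calls turned on single libraries. Phlda3 was not called without autoMACS to Tyto-TRAP replicate 1 (-0.76) or 2 (-0.80) or without Cell-TRAP replicate 3 (-1.0), and moved to -1.79 without autoMACS to Tyto-TRAP replicate 3. Gadd45g was not called without autoMACS to Tyto-TRAP replicate 1 (-0.94) or Cell-TRAP replicate 1 (-0.95).

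Sorted cells were also set against intact tissue in TRAP. Here Phlda3 (-4.74, SE 0.22, 26.7-fold, edgeR adjusted p = 1.76e-16), Gadd45a (-2.36, SE 0.21, 5.14-fold, edgeR adjusted p = 8.08e-11) and Cdkn1a (-1.21, SE 0.16, edgeR adjusted p = 1.29e-07) were lower, and Gadd45b was higher (1.2, SE 0.28, edgeR adjusted p = 0.000342). All 4 were without overlap between the 16 sorted and the 4 Tissue-TRAP libraries, with 62.8% of all genes called. Gadd45b stood between 14.1 and 44.5 CPM in sorted TRAP and between 8.5 and 13.8 CPM in Tissue-TRAP, and its value fell to between 0.72 and 0.86 in 4 alternative fits that rescale or refilter the table, in which it was not called. Cdkn1a was below Tissue-TRAP in all 4 sorted groups. Its place in the unsorted suspension depended on the scaling, above Tissue-TRAP without a call by edgeR and just below it with limma. Bbc3, at 0.99, was just short of the 2-fold threshold, and it was called at 1.0 without a filter and when any 1 of 8 single libraries was left out (at most 1.04). Astrocyte markers summed to 124 to 220 CPM in sorted TRAP against 3195 to 4924 CPM in Tissue-TRAP, and neuronal markers to 3.06 to 8.32 against 4468 to 5233 CPM. Both were lower together with Phlda3, Gadd45a and Cdkn1a, and their part in these values was not tested.

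Among the 4 sorts few members differed. The test across the 4 groups called Gadd45a in Input (largest log2 difference between a pair of sorts 1.25, edgeR adjusted p = 0.0812, 7.42% of all genes called). The call turned on single libraries, since it was lost without any of 8 of the 16 libraries, among them autoMACS-Input replicate 3 (0.73, edgeR adjusted p = 0.282), and the difference was 1.97 without FACSAria-Input replicate 1. In TRAP the test called Phlda3 (1.74, edgeR adjusted p = 0.0319) and Gadd45a (1.10, edgeR adjusted p = 0.0445), with 4.17% of all genes called. The Phlda3 call was lost without autoMACS to Tyto-TRAP replicate 3, the library at 3.26 CPM (1.01, edgeR adjusted p = 0.174), and the Gadd45a call without autoMACS-TRAP replicate 3 (0.99) or 4 (1.03) or Tyto-TRAP replicate 3 (1.01). A second sort after the beads called no member by edgeR in Input (1.96% of all genes called, 2 members at an unadjusted p under 0.05, 0 by DESeq2 and by limma) or in TRAP (2.37%, 3 at an unadjusted p under 0.05, Phlda3 alone by DESeq2, 0 by limma). Nor did Tyto against FACSAria, in Input (0.476% of all genes called, 0 at an unadjusted p under 0.05) or in TRAP (0.0936%, 2 at an unadjusted p under 0.05), with 0 by DESeq2 and by limma in both.

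FACSAria replicate 1 was the highest of its group for Cdkn1a (42.7 CPM in Input and 46.7 CPM in TRAP, against 21.7 to 30 and 18.9 to 25.8 CPM in the other 3 mice), for Gadd45a (4.88 and 2.96 CPM, against 1.06 to 1.64 and 1.27 to 1.82) and for Gadd45b (42.3 and 44.5 CPM, against 17.7 to 27.9 and 19.9 to 28.3). Input and TRAP of this replicate came from the same mouse. In Tyto, Gadd45b was likewise spread among mice, at 13, 32.8, 22.7, 19.4 and 32 CPM in Input and 14.1, 36.4, 19.7, 15.7 and 37.5 CPM in TRAP, with the same replicates high in both fractions.

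TRAP was also set against Input within each preparation, which compares RNA on tagged ribosomes with RNA of the whole lysate. Such a difference alone does not tell which cells held a transcript. In Cell of the sort comparison Phlda3 (-3.45, SE 0.30, edgeR adjusted p = 2.52e-13) and Gadd45a (-1.68, SE 0.36, edgeR adjusted p = 6.98e-05) were lower and Bbc3 (1.75, SE 0.22, edgeR adjusted p = 4.81e-09) was higher in TRAP, with 47.6% of all genes called. After the sorts 1, 1, 1 and 0 of 8 members were called, counts too small to set apart from the shares of all genes called, given with each. Gadd45a was lower in TRAP of autoMACS (-1.15, 17.5% of all genes called) and of autoMACS to Tyto (-1.18, 5.4%), and Phlda3 in TRAP of Tyto (-1.95, SE 0.38, edgeR adjusted p = 8.13e-05, 17%). The autoMACS value was -0.97 and not called with the mouse as a block (edgeR adjusted p = 0.115), and -0.67 without the pair of replicate 3, while that of autoMACS to Tyto was not called without any 1 of its 3 pairs (-1.0 to -1.39). In FACSAria no member was called by edgeR (10.3% of all genes, 2 members at an unadjusted p under 0.05, 0 by DESeq2 and by limma).

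In the cell preparation comparison, TRAP of Cell (-) Inhibitors was lower than Input for Phlda3 (-3.62, SE 0.38), Gadd45a (-1.70, SE 0.33) and Gadd45g (-1.26, SE 0.23) and higher for Bbc3 (1.13, SE 0.25), with 47.3% of all genes called. With the mouse as a block Gadd45g was at -0.93 and not called, and Gadd45b came to 1.08 and was called (edgeR adjusted p = 0.000317). Cell (+) Inhibitors had 5 members lower in TRAP (45.6% of all genes called): Phlda3 (-3.75, SE 0.39), Gadd45a (-2.40, SE 0.34), Gadd45g (-1.91, SE 0.24), Gadd45b (-1.38, SE 0.35) and Cdkn1a (-1.01, SE 0.17). The Cdkn1a value was -0.70 and not called with the mouse as a block, lay between -0.97 and -0.88 and was not called in 4 other alternative fits, and was -0.91 without replicate 4. Bbc3, at 0.92, was called at 1.22 with the block (edgeR adjusted p = 6.19e-06) and at 1.04 to 1.05 in 3 other fits. In Dounce, Gadd45a (-1.92, SE 0.37) and Gadd45b (-1.05, SE 0.43) were lower in TRAP, with 47.5% of all genes called. Gadd45b was not called there with the mouse as a block (-1.15, edgeR adjusted p = 0.124) or without replicate 1 (-0.65) or 4 (-0.85), and it moved to -1.74 without replicate 3. Phlda3, at -0.46 there, was called with limma (-2.28, limma adjusted p = 0.0148) and without replicate 4 (-1.06, edgeR adjusted p = 0.0592). The median over all genes of TRAP minus Input was -0.424 in Cell (-) Inhibitors and -0.395 in Cell (+) Inhibitors.

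**Figure D3:**
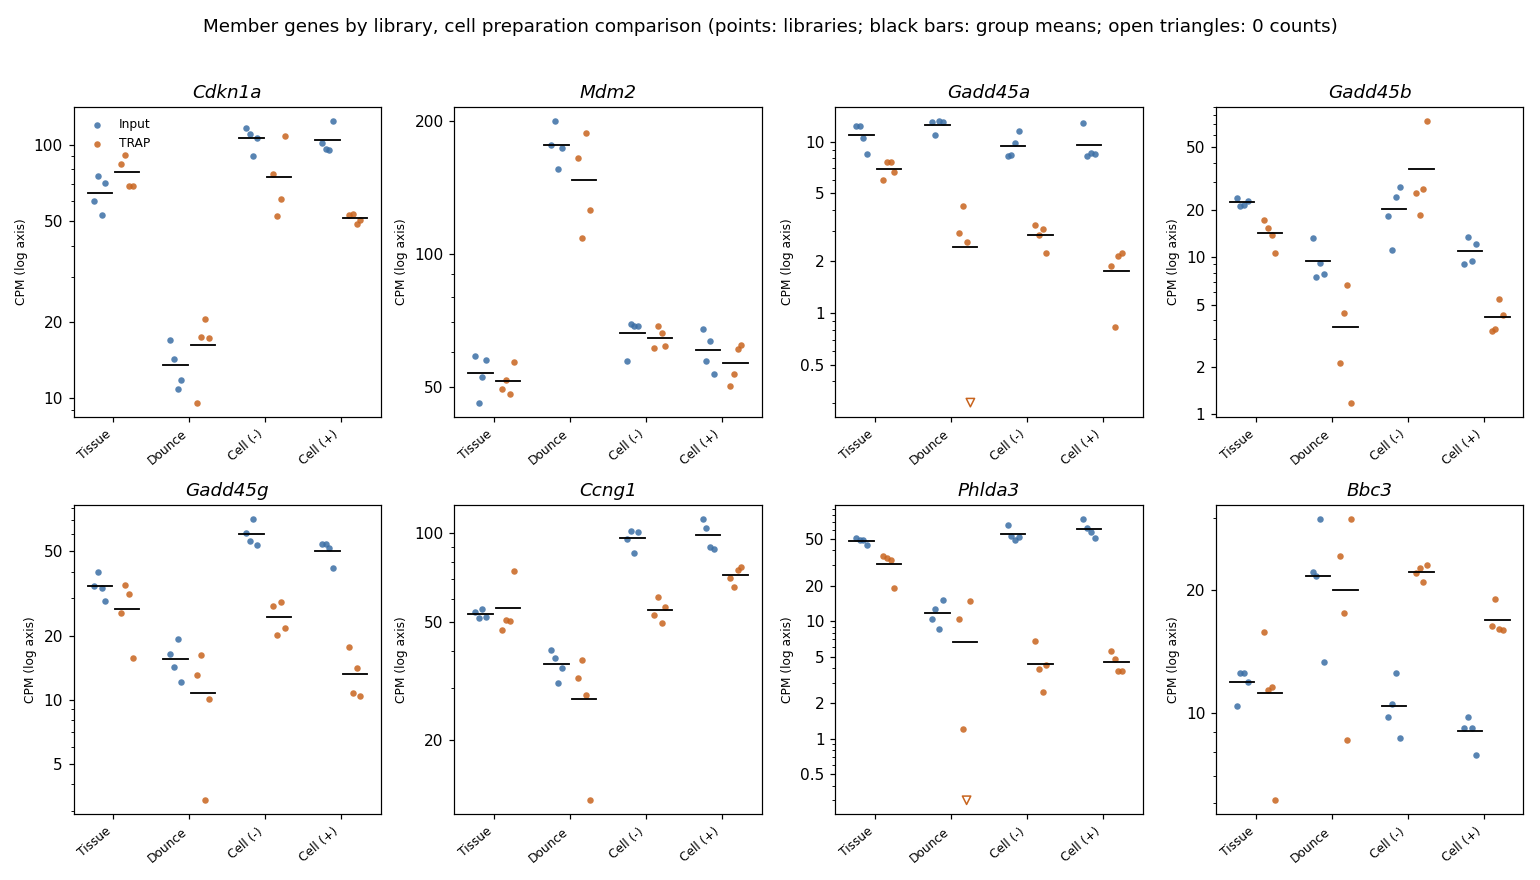
Level of each member gene in the 32 libraries of the cell preparation comparison, in CPM on a log axis, with Input in blue, TRAP in orange, 1 point per library, a black bar at the group mean and an open triangle at the lower edge for a library with 0 counts. Gadd45b in TRAP lies at 18.6 to 73.5 CPM without and 3.41 to 5.43 CPM with inhibitors, and Dounce has the lowest Cdkn1a and the highest Mdm2 in both fractions.

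The inhibitor question compares 2 suspensions from the same 4 mice. Gadd45b in TRAP was at 25.5, 18.6, 27.3 and 73.5 CPM in Cell (-) Inhibitors and at 3.41, 3.5, 5.43 and 4.32 CPM in Cell (+) Inhibitors. It was lower with inhibitors in all 4 mice and fell by 3.11 on the log2 scale (SE 0.41, 8.66-fold, edgeR adjusted p = 0.000148), in a contrast that called 0.638% of all genes. Without Cell (-) Inhibitors replicate 4 it fell by 2.51 (edgeR adjusted p = 0.000248). With inhibitors, Gadd45b in TRAP was also below intact tissue, at -1.77 on the log2 scale against Tissue-TRAP (SE 0.40, edgeR adjusted p = 0.000689). Cell content differed between suspension and tissue, as given below, and its part in this value was not tested. No other member was called between the suspensions. Gadd45g was lower with inhibitors in all 4 mice, at 17.7, 10.7, 14.1 and 10.4 CPM against 27.4, 20.1, 28.7 and 21.6 CPM, and its difference of -0.89 (SE 0.30, edgeR adjusted p = 0.252) stayed under 2-fold. The remaining members stood closer. Cdkn1a was at 51.2 ± 2.1 CPM (SD, n = 4) with and 74.6 ± 24.6 without inhibitors and Mdm2 at 56.7 ± 5.74 and 64.5 ± 3.48, both with overlap. Ccng1 was higher with inhibitors, at 66 to 77.2 against 49.6 to 60.8 CPM, and Bbc3 lower, at 16 to 19 against 20.9 to 23.1 CPM, both without overlap. Microglial markers summed to 22560 to 23463 CPM with and 21193 to 24378 without inhibitors.

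In Input the inhibitors changed no member by edgeR (0.311% of all genes called, 1 member at an unadjusted p under 0.05, 0 by DESeq2 and by limma). That member was Gadd45b, at 18.4, 11.2, 24.2 and 27.9 CPM without and 9.01, 13.5, 9.48 and 12.1 CPM with inhibitors, with overlap and a difference of -0.89 (SE 0.24, edgeR adjusted p = 0.281). It was called at -1.09 (edgeR adjusted p = 0.0143) when Cell (-) Inhibitors replicate 2, the library at 11.2 CPM, was left out. The test of the difference between the fractions called Gadd45b alone of the 8 (-2.24, SE 0.48, edgeR adjusted p = 0.037), with 0.145% of all genes called. Over fits that left out single replicates this value ran from -2.46 to -1.81, and its edgeR adjusted p was 0.127, 0.287 and 0.173 without Cell (+) Inhibitors replicates 1, 2 and 4. With limma it was -2.13 and not called (limma adjusted p = 0.279). Microglial markers summed to 2944 to 5452 CPM in Cell (-) Inhibitors-Input and 4279 to 6280 CPM in Cell (+) Inhibitors-Input.

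Against Tissue, Cell (+) Inhibitors called Gadd45b alone in Input (-1.02, SE 0.24, edgeR adjusted p = 0.000695, 45.6% of all genes called). This call was lost without Cell (+) Inhibitors-Input replicate 1 (-0.94) or 3 (-0.96) or Tissue-Input replicate 1 (-0.99). Cdkn1a was not called, at 102, 96, 95.6 and 124 CPM against 52.8 to 75.2 CPM in Tissue-Input. In TRAP 4 members were lower than in Tissue (52.8% of all genes called): Phlda3 (-2.77, SE 0.57, edgeR adjusted p = 0.000248), Gadd45a (-1.97, SE 0.49, edgeR adjusted p = 0.00144), Gadd45b as given above, and Gadd45g (-1.02, SE 0.31, edgeR adjusted p = 0.00609). Gadd45g was not called with limma (-0.98), in the fit of only these 2 groups (-0.94), or without Cell (+) Inhibitors-TRAP replicate 2 (-0.93) or 4 (-0.92) or Tissue-TRAP replicate 2 (-0.87) or 3 (-0.93). Phlda3 stood at 4.5 ± 0.884 CPM (SD, n = 4) with and 4.35 ± 1.76 CPM without inhibitors. Neuronal markers summed to 37.7 to 146 CPM in Cell (+) Inhibitors-TRAP and 5348 to 6534 CPM in Tissue-TRAP. Astrocyte markers summed to 1106 to 1611 and 4273 to 6701 CPM, and microglial markers to 22560 to 23463 and 3128 to 3567 CPM. The part of cell content in the values against Tissue was not tested.

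Dounce, the cold preparation, set Mdm2, Cdkn1a and Ccng1 apart from every other group of the cell preparation comparison in both fractions. Dounce against Tissue called 50.1% of all genes in Input and 50.3% in TRAP. Ccng1 was at 31.1 to 40.4 CPM in Dounce-Input and 12.5 to 37.3 CPM in Dounce-TRAP, against at least 51.9 and 47.1 CPM in the other groups. In Input alone, Phlda3 and Gadd45g were also below, and Bbc3 above, every other library. Mdm2 was at 177, 200, 156 and 174 CPM in Dounce-Input against 58.8, 46.1, 52.6 and 57.5 CPM in Tissue-Input, and at 165, 109, 188 and 126 CPM in Dounce-TRAP against 49.6, 51.9, 48.1 and 57 CPM in Tissue-TRAP. Every Dounce library was above every other library of its fraction in this comparison. Mdm2 rose by 1.72 on the log2 scale in Input (SE 0.11, 3.29-fold, edgeR adjusted p = 5.21e-11) and by 1.50 in TRAP (SE 0.14, 2.84-fold, edgeR adjusted p = 3.09e-08). Cdkn1a went the other way, with 17, 14.3, 10.9 and 11.8 CPM in Dounce-Input and 9.6, 17.4, 20.5 and 17.3 CPM in Dounce-TRAP. Every Dounce library was below every other library of its fraction, and Cdkn1a fell by 2.23 in Input (SE 0.15, 4.7-fold, edgeR adjusted p = 9.59e-11) and by 2.28 in TRAP (SE 0.23, 4.87-fold, edgeR adjusted p = 4.9e-08) against Tissue.

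The other calls of Dounce against Tissue were all downward. In Input they were Phlda3 (-2.04, SE 0.16), Gadd45b (-1.23, SE 0.24) and Gadd45g (-1.14, SE 0.15), with 50.1% of all genes called. In TRAP they were Phlda3 (-2.21, SE 0.59), Gadd45b (-2.01, SE 0.46), Gadd45a (-1.47, SE 0.52), Gadd45g (-1.28, SE 0.33) and Ccng1 (-1.0, SE 0.22), with 50.3% of all genes called. The low counts of Dounce-TRAP limit these values: Gadd45a had 0 counts in replicate 4, which allows up to 0.893 CPM, and Phlda3 0 counts in replicate 3, which allows up to 1.12 CPM, both limits covering counting error only. Gadd45b had 4 to 22 counts per Dounce-TRAP library. Phlda3 was at 10.4, 1.2, 0 and 14.9 CPM there, and its value moved to -2.96 without replicate 4. Ccng1 was not called without Dounce-TRAP replicate 4 (-0.77) or Tissue-TRAP replicate 4 (-0.83). Blood markers summed to 8661 to 10172 CPM in Dounce-Input against 104 to 187 CPM in Tissue-Input and 3494 to 8117 CPM in Cell (-) Inhibitors-Input. In TRAP they were at 185 to 446 CPM in Dounce and 18.9 to 29.7 CPM in Tissue, and microglial markers at 15553 to 21118 and 3128 to 3567 CPM. Neuronal markers summed to 940 to 1651 CPM in Dounce-TRAP against 5348 to 6534 CPM in Tissue-TRAP, astrocyte markers to 1593 to 3472 against 4273 to 6701 CPM, and endothelial markers to 50.7 to 72.1 against 114 to 188 CPM. These 3 sums were lower together with the members called lower in TRAP, though only 1 of the 6 endothelial markers was above 0 in every Dounce-TRAP library. Oligodendrocyte markers went the other way, at 1289 to 2085 CPM in Dounce-TRAP against 881 to 1167 CPM in Tissue-TRAP. They were also higher in Dounce-Input, at 6377 to 7166 against 4501 to 5555 CPM in Tissue-Input. In Input, neuronal markers summed to 3258 to 3532 CPM in Dounce against 7038 to 7247 CPM in Tissue, and microglial markers to 919 to 1639 against 154 to 167 CPM. The paper reports more 3′ bias of gene coverage in Tissue and Dounce than in the warm suspensions, in both fractions. The part of cell content, blood RNA and RNA quality in the Dounce values of either fraction, Mdm2 and Cdkn1a included, was not tested.

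Set beside the warm suspensions, Dounce kept the same contrast. Against Cell (-) Inhibitors, Input calls were Mdm2 (1.42, SE 0.11) and Bbc3 (1.07, SE 0.20) higher and Cdkn1a (-2.94, SE 0.15), Phlda3 (-2.23, SE 0.16), Gadd45g (-1.96, SE 0.15), Ccng1 (-1.41, SE 0.10) and Gadd45b (-1.10, SE 0.24) lower, with 56.8% of all genes called. The smallest of these were lost without single libraries, Bbc3 without Cell (-) Inhibitors-Input replicate 4 (0.99) or Dounce-Input replicate 3 (0.88) and Gadd45b without Cell (-) Inhibitors-Input replicate 4 (-0.91) or Dounce-Input replicate 2 (-0.99). Against Cell (+) Inhibitors, Mdm2 (1.54, SE 0.11) and Bbc3 (1.27, SE 0.20) were higher and Cdkn1a (-2.92, SE 0.15), Phlda3 (-2.38, SE 0.15), Gadd45g (-1.70, SE 0.15) and Ccng1 (-1.44, SE 0.10) lower, with 56.9% of all genes called. In TRAP the calls against Cell (-) Inhibitors were Mdm2 (1.18, SE 0.14), Gadd45b (-3.35, SE 0.46, 10.2-fold), Cdkn1a (-2.22, SE 0.22) and Gadd45g (-1.15, SE 0.33), with 28.7% of all genes called. Gadd45b moved to -2.75 without Cell (-) Inhibitors-TRAP replicate 4, and Gadd45g was not called without Dounce-TRAP replicate 3 (-0.88). Ccng1, at -0.98, was called in 4 alternative fits (-1.2 to -1.0) and without Dounce-TRAP replicate 1 (-1.05) or 2 (-1.17) or Cell (-) Inhibitors-TRAP replicate 3 (-1.02). Against Cell (+) Inhibitors they were Mdm2 (1.37, SE 0.14), Cdkn1a (-1.67, SE 0.22) and Ccng1 (-1.37, SE 0.22), with 29.1% of all genes called. Gadd45b was not among them: it was at 2.13, 4.39, 6.71 and 1.19 CPM in Dounce-TRAP and at 3.41 to 5.43 CPM in Cell (+) Inhibitors-TRAP. The 4 to 22 counts of Gadd45b per Dounce-TRAP library limit its comparison with either suspension.

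**Figure D4:**
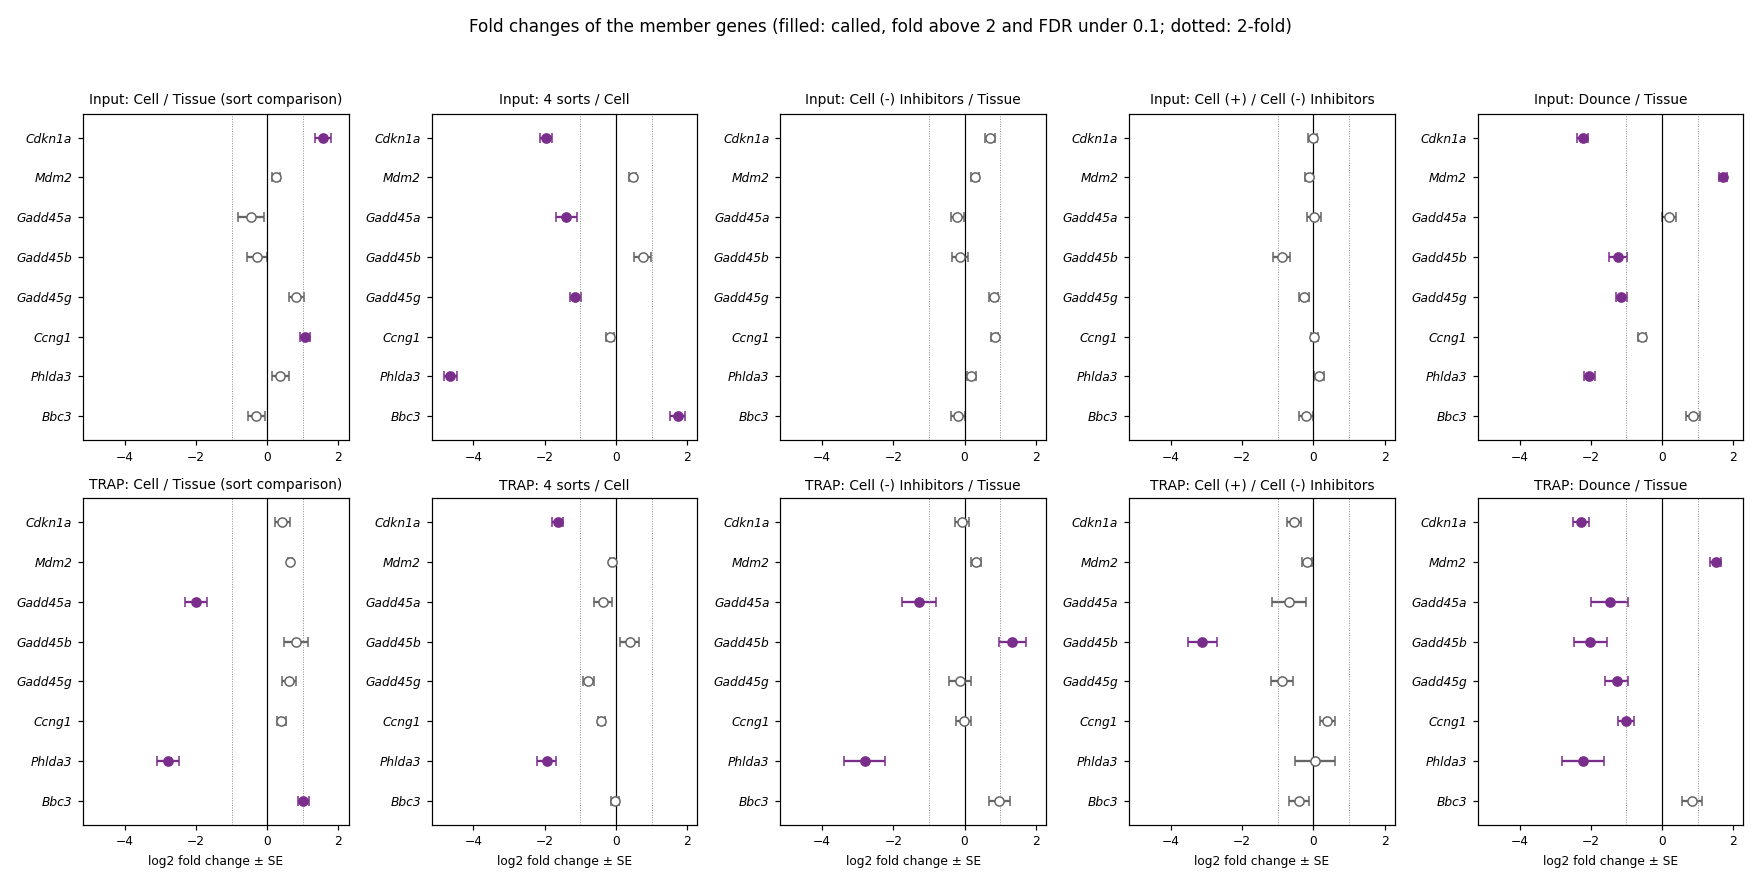
Log2 fold change of each member with SE bars in 10 contrasts, Input in the upper and TRAP in the lower row; filled points passed the call (fold above 2, FDR under 0.1) and dotted lines mark 2-fold. Gadd45b is the single filled point of the inhibitor panels (-3.11 in TRAP), and in both Dounce panels Mdm2 is to the right (1.72 and 1.50) and Cdkn1a to the left (-2.23 and -2.28).

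The order of the preparations differed from member to member. For Cdkn1a in Input of the sort comparison it was Cell (mean 128 CPM), autoMACS (43.8), Tissue (42.9), Tyto (29.9), autoMACS to Tyto (29.7) and FACSAria (29.3), where Cell is clear of its neighbour, autoMACS and Tissue overlap, and so do the last 3. For Gadd45b in TRAP of the cell preparation comparison it was Cell (-) Inhibitors (36.2 CPM), Tissue (14.3), Cell (+) Inhibitors (4.16) and Dounce (3.61), with overlap between the last pair only. Mdm2 in TRAP of the sort comparison ran from 62.1 ± 2.02 CPM (SD, n = 3) in autoMACS to Tyto to 69.5 ± 2.32 CPM (SD, n = 4) in Cell, above 44.7 ± 1.55 CPM (SD, n = 4) in Tissue.

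Trp53, which encodes p53 itself, and Mdm4, the partner of Mdm2, were read beside their targets. Trp53 in TRAP of the sort comparison stood at 22.8 ± 3.1 CPM (SD, n = 4) in Tissue, 72.4 ± 7.11 CPM (SD, n = 4) in Cell and 101 ± 12.9 (SD, n = 4, autoMACS) to 119 ± 10.4 CPM (SD, n = 5, Tyto) in the sorted groups. It was higher in Cell-TRAP than in Tissue-TRAP (log2 1.67, SE 0.11, edgeR adjusted p = 2.32e-13), with 54.3% of all genes called. Between the sorts and Cell-TRAP it was not called. In Input the mean was 15.1 CPM in Tissue, 25.7 in Cell and 75.4 (autoMACS) to 93.1 CPM (FACSAria) in the sorted groups. Microglial markers were also higher in Cell-TRAP than in Tissue-TRAP (mean sums 20050 and 2854 CPM). The part of cell content in the Trp53 values was not tested. The inhibitors left Trp53 at 105 ± 3.21 CPM (SD, n = 4) in TRAP, against 112 ± 6.08 CPM without them. Mdm4 was higher in Dounce-Input than in Tissue-Input (2.36, SE 0.25, edgeR adjusted p = 5.05e-08) and, with overlap, in Dounce-TRAP than in Tissue-TRAP (1.01, SE 0.25, edgeR adjusted p = 0.0016). These contrasts called 50.1% and 50.3% of all genes, and Mdm2 had the same direction in them. In TRAP, mean Mdm4 was at 16.6 CPM in Dounce, 16.5 in Cell (-) Inhibitors and 14.8 in Cell (+) Inhibitors, where Mdm2 was at 147, 64.5 and 56.7 CPM.

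Further targets of p53 (30 genes listed, 28 in the tables) moved in both directions. Between Cell and Tissue 11 were higher and 4 lower in Input (median log2 change 0.554, against 0.166 over all genes) and 10 higher and 4 lower of 27 tested in TRAP (0.554 against -0.011). These counts were near the background, with 46% of all genes called in Input and 54.3% in TRAP. Btg2, an antiproliferative immediate-early gene, led in both (5.07, SE 0.20, and 6.12, SE 0.20), followed in TRAP by Gdf15 (4.42, SE 0.65), a stress cytokine, and Plk3 (2.41, SE 0.24), while Zfp365 (-4.67, SE 0.22) fell most. Against the suspension, the sorts had 4 higher and 7 lower in Input (median 0.104 against -0.089) and 0 higher and 3 lower in TRAP (-0.114 against -0.052), beside 51.8% and 24.4% of all genes called, with 0 called between Tyto and FACSAria in either fraction by edgeR. With inhibitors Btg2 fell in Input (-2.92, SE 0.18) and in TRAP (-3.69, SE 0.18), and Pmaip1, another BH3-only gene, in TRAP (-1.22, SE 0.32, edgeR adjusted p = 0.0645), and no other listed target was called, with 0.311% and 0.638% of all genes called. Dounce against Tissue had 6 higher and 5 lower in Input (0.126 against 0.102) and 5 higher and 4 lower in TRAP (0.191 against -0.06), with 50.1% and 50.3% of all genes called. There Tnfrsf10b, a death receptor, was higher in both (2.32, SE 0.14, and 2.33, SE 0.35), and Btg2 higher in TRAP (2.13, SE 0.18).

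The counts of 3 further lists are read against the same shares of all genes called, 46% in Cell-Input and 54.3% in Cell-TRAP against Tissue, 0.311% and 0.638% with inhibitors, and 50.1% and 50.3% in Dounce. Regulators of p53 (10 genes) had 4 higher in Cell-Input and 5 higher in Cell-TRAP against Tissue, 0 lower in both (medians 0.663 and 0.956, against 0.166 and -0.011 over all genes). Atr, a kinase that senses stalled replication, led in TRAP (2.42, SE 0.13). None was called with inhibitors in either fraction (edgeR medians 0.018 in Input and -0.079 in TRAP), and Dounce had 5 higher than Tissue in each fraction, led by Chek2 in TRAP (2.07, SE 0.26). Of 12 partners of the Gadd45 proteins and stress kinases, 4 were higher and 3 lower in Cell-Input and 6 higher and 4 lower in Cell-TRAP against Tissue. Cdk1 (1.91, SE 0.31) and Map2k3 (1.45, SE 0.10) were among the higher ones in TRAP, and Mapk11 (-3.64, SE 0.39) and Mapk8 (-1.36, SE 0.10) among the lower ones, and none of the 12 was called with inhibitors. Of 6 further CDK inhibitors 5 were tested in Input and 6 in TRAP. Cdkn1c and Cdkn2b were higher in Cell than in Tissue in Input (2.68, SE 0.20, and 3.05, SE 0.60) and in TRAP (1.18, SE 0.14, and 1.61, SE 0.38), and Cdkn2d was lower in both (-1.36, SE 0.15, and -1.91, SE 0.12). None of them was called with inhibitors.

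Genes with a pattern like that of a member were sought over group means, by the smaller of 2 Pearson correlations of log2(CPM + 1), over the 12 groups of the sort and the 8 groups of the cell preparation comparison, among 12932 genes. The groups share mice and cell content, so these values are a description. Gadd45b was most like Hspa1a (0.844), Egr1 (0.834) and Fosb (0.822), genes known as heat-shock and immediate-early genes. Cdkn1a was most like Hspb1 (0.966), Id1 (0.95) and Egfl7 (0.939), the last known from endothelial cells, and Phlda3 was most like Paqr4 (0.993), Igfbp6 (0.991) and Irx1 (0.986). The nearest gene of Mdm2 was Zfp277 (0.956), of Gadd45a A930005H10Rik (0.96), of Gadd45g Lamc3 (0.908), of Ccng1 Ccny (0.944) and of Bbc3 Tnip2 (0.952).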

How the data were processed

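RNA-seq libraries of Input and TRAP RNA from Cx3cr1-NuTRAP mouse brain were analysed from 2 deposited gene tables. Per the study's methods, the authors aligned reads to mm10 and quantified genes in Strand NGS, and their processing notes name DESeq2. The deposited estimated counts per gene were made by the authors in that program (33.2% and 20.8% of values were whole), and the authors also deposited log2 values that they normalised. Estimated counts were rounded to whole numbers. Symbols that a spreadsheet had turned into dates (23 per comparison) were restored by gene ID.

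The main test was edgeR's quasi-likelihood test (edgeR 4.0.16, R 4.3.3) with TMM scaling, on genes whose counts exceeded 5 throughout 1 group or more, and a call needed a fold above 2 at an FDR (Benjamini-Hochberg) under 0.1. Each fraction was fitted with all its groups of a comparison, and contrasts between fractions in a fit of both, with p-values adjusted over all genes tested. Fits were tested on simulated counts. Alternatives were DESeq2 size factors, DESeq2 1.42.0, limma 3.58.1 on the authors' log2 values, other count filters, fits of only the groups compared, and leaving out each replicate. The mouse as a block was a further alternative, for contrasts of a pair of groups that share mice. Depth was 2471448 to 20168116 counts per library. Limits for a gene with 0 counts are 3 counts of the total and cover counting error only.

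Groups came from the sample labels, and replicates are separate mice. Mouse numbers in the sample titles pair libraries of the same mouse, whose deviations from the group means correlated at -0.062 to 0.453 between groups and at -0.155 to 0.414 between TRAP and Input. Replicates differed by more than sampling noise (chi-square per gene 3.53 to 100 over 122 pairs). The 8 members are named in every comparison, Trp53 and Mdm4 are given beside them, and of each further list up to 3 called genes per direction may be named. The members and lists were chosen with earlier results of these data known. Pidd1 and Tigar of the p53 targets, Acta2 and Hbb-bs of the markers were not found under these symbols. One gene of the microglial marker list is not reported here, and its counts are in no marker sum.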

Additional observations from a re-analysis of the deposited data

Results flagged for a closer look

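Of 144 groups of 4 or 5 libraries tested with Dixon's criterion, 15 (10.4%) had a library far from the rest, where 5% would be flagged by chance. In autoMACS-Input, replicate 3 stood apart for Mdm2 (113 CPM, highest), Bbc3 (63.1 CPM, highest) and Ccng1 (53.1 CPM, lowest), in the library with the lowest total and the lowest microglial marker sum of the sorted Input. For Gadd45b the libraries were Cell-Input replicate 1 (18.3 CPM), Cell-TRAP replicate 1 of the same mouse (35.1 CPM) and Cell (-) Inhibitors-TRAP replicate 4 (73.5 CPM), each the highest of its group. For Gadd45a they were FACSAria-Input replicate 1 (4.88 CPM, highest), Cell (+) Inhibitors-Input replicate 1 (12.9 CPM, highest) and Dounce-Input replicate 2 (11 CPM, lowest). In Tissue-TRAP of the cell preparation comparison, replicate 4 was highest for Ccng1 (74.7 CPM) and lowest for Phlda3 (19.2 CPM). The others were Mdm2 in Tissue-Input replicate 3 of the sort comparison (44.5 CPM, lowest) and in Cell (-) Inhibitors-Input replicate 1 (57.2 CPM, lowest), Phlda3 in autoMACS-TRAP replicate 4 (1.56 CPM, highest) and Bbc3 in Cell (+) Inhibitors-TRAP replicate 2 (19 CPM, highest).

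Changes that differed between TRAP and Input by the interaction test were also noted. For Cell against Tissue in the sort comparison the difference, TRAP minus Input on the log2 scale, was -1.06 for Cdkn1a, -1.46 for Gadd45a, 1.2 for Gadd45b, -3.08 for Phlda3 and 1.40 for Bbc3. For Cell (-) Inhibitors against Tissue it was -1.27 for Gadd45a, 1.29 for Gadd45b, -1.13 for Gadd45g, -1.06 for Ccng1 and -3.19 for Phlda3. For the inhibitors it was -2.24 for Gadd45b.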

How the results depend on the processing

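Of 630 called values refitted under another scaling, filter, tool or sample choice, 581 stayed called in the same direction, 49 were no longer called and 0 reversed, and of 1015 refitted without a replicate the numbers were 962, 53 and 0. Where a count of called members moved by over 1.5 times, fewer members passing the filter or a fold near 2 is part of the settings' construction, and any other cause was not tested. The value for Cdkn1a: Cell-TRAP against Tissue-TRAP, sort comparison, not called at 0.43, was -0.0092 with limma. DESeq2 size factors moved the median of all genes by -0.33 in Cell-TRAP against Tissue-TRAP, -0.346 in sorted TRAP against Tissue-TRAP and -0.207 in sorted Input against Cell-Input. In shallow libraries, Dounce-TRAP above all, the low counts of Gadd45a, Gadd45b and Phlda3 limit precision.

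With the mouse as a replicate block, the members called went from 2 to 1 in Cell-Input against Tissue-Input (Ccng1 0.92), from 2 to 1 between TRAP and Input of Dounce and from 1 to 0 in autoMACS. Over all 23 called values that could be paired, 17 kept their call and 6 lost it, and 2 were gained.

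Cell-Input against Tissue-Input also had 1 called member in place of 2 with DESeq2 size factors, DESeq2, limma, at least 10 counts in every sample, or only the 2 groups in the fit. With at least 10 counts in every sample, calls were lost where a member was no longer tested or, among those still tested, where the fold came under 2 (Bbc3 in Cell-TRAP, Gadd45b in sorted TRAP and in Cell (+) Inhibitors-Input, each against Tissue, Cdkn1a between TRAP and Input of Cell (+) Inhibitors, and Gadd45b and Ccng1 in the interactions). The members called were 1 in place of 2 for the 4 sorts in TRAP and for sorted, autoMACS, Tyto and FACSAria TRAP against Cell-TRAP, 1 in place of 3 for Cell-TRAP and 2 in place of 4 for sorted TRAP against Tissue-TRAP. They were 0 for Cell (+) Inhibitors against Tissue in Input and TRAP, for Cell (-) Inhibitors-TRAP against Tissue-TRAP, for the inhibitors in TRAP, and for TRAP against Input in Tyto, Dounce and Cell (+) Inhibitors, and 1 in Cell (-) Inhibitors. Dounce-TRAP had 3 against Tissue-TRAP and 2 against Cell (-) Inhibitors-TRAP, and the interactions had 3 in the sort comparison, 1 for Cell (-) Inhibitors and 0 for the inhibitors. With limma, 0 were called for the 4 sorts in Input, Cell (+) Inhibitors-Input against Tissue-Input, TRAP against Input in autoMACS and the inhibitor interaction, and 3 for the Cell (-) Inhibitors interaction. DESeq2 size factors and DESeq2 each called 1 member, in place of 0, for autoMACS to Tyto-TRAP against autoMACS-TRAP.

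Without single replicates the members called ranged from 0 to 2 for the 4 sorts in Input, from 1 to 2 for the 4 sorts in TRAP, from 0 to 1 for autoMACS to Tyto against autoMACS in Input and in TRAP, from 1 to 3 for autoMACS to Tyto-TRAP against Cell-TRAP, from 0 to 1 for Cell (+) Inhibitors-Input against Tissue-Input and against Cell (-) Inhibitors-Input, and from 0 to 1 for the inhibitor interaction. Between TRAP and Input they ranged from 1 to 2 in Dounce, 1 to 2 in Tyto, 0 to 2 in autoMACS, and were 0 in autoMACS to Tyto.

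The share of higher genes among all called genes moved by over 10 points in these cases: from 46.2% to 35%, 35.4% and 31.8% (DESeq2 size factors, DESeq2 and limma) for Cell-TRAP against Tissue-TRAP, from 35.2% to 21%, 21.4% and 18.8% for TRAP against Input in Cell, and from 16.3% to 5.23%, 5.52% and 5.41% for the sort interaction. With limma alone it went from 35.2% to 24.9% and from 33.4% to 23% for autoMACS and autoMACS to Tyto against Cell in Input, from 41.2% to 29.9% for sorted TRAP against Tissue-TRAP, from 72.1% to 58.6% and from 73.8% to 61.2% for Dounce-TRAP against Cell (-) and Cell (+) Inhibitors, and from 83.1% to 70.4% and from 43.8% to 30.4% for TRAP against Input in Tissue of the sort comparison and in Dounce. With DESeq2 alone it went from 73.3% to 53.7% for Tyto against FACSAria in Input and from 0% to 12.2% for the inhibitor interaction.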
